A study of Mus musculus with 6 samples.

Results

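Interferon-stimulated genes were followed in 3 stromal cell subpopulations of mouse skeletal muscle, at rest and on day 3 after a toxin injury. The 45 genes are a named list of antiviral effectors, nucleic acid sensors, signal transcription factors and chemokines, chosen with earlier results of these data known. Their identifiers were matched to mouse symbols with synonyms allowed. All 45 were found among the 22483 genes of the deposited table, and all 45 were among the 15532 genes kept by a filter on low values. In untreated muscle every member was at its highest in CD140a(-)/Sca1(+) cells, as were 6423 of the 15532 genes, ties included. After injury 44 of the 45 were lower in those cells than in the matching control (9516 of the 15532). In CD140a(+)/Sca1(+) cells 44 of the 45 were higher than in the matching control (8390 of the 15532), and 43 did both (4851).

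Type I interferons, such as interferon beta, are released by cells that detect viral or misplaced nucleic acid, whereas type II interferon (interferon gamma) comes mainly from lymphocytes. Their receptors signal through JAK kinases to STAT transcription factors. Complexes of these factors, with STAT2 and IRF9 among their parts after type I signaling, bind the interferon-stimulated response element (ISRE), and others bind the gamma-activated sequence (GAS). The genes switched on in this way block viral replication, raise antigen presentation and attract lymphocytes, and many of them are also held at a low tonic level in unchallenged tissue.

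The cells came from 8-12-week-old Swiss white mice whose right leg received 20 uM cardiotoxin, a snake venom toxin that destroys muscle fibers, and the untreated contralateral leg served as control. The sample labels name the tibialis anterior, while the study's Results speak of gastrocnemius and soleus muscle. By the study's methods, the digested cells were then kept for hours in an incubator so that surface markers could recover. The part of this step in the levels was not tested. Cells carrying CD45, CD31 or CD11b (leukocyte, endothelial and myeloid surface proteins) were gated out, and the remainder was sorted on CD140a (the product of Pdgfra) and Sca1 (that of Ly6a) into the Sca1-only sort CD140a(-)/Sca1(+), the CD140a-only sort CD140a(+)/Sca1(-), and the double-positive sort CD140a(+)/Sca1(+). The design gives 1 QuantSeq library, made of reads from the 3′ ends of transcripts, for each sort and state, and the number of mice behind a library was not stated, so every sort is without a replicate library in either state. Values are normalized counts, recovered from the deposited log2 values, and a gene with no read is called listed at 0 in that library. Levels are compared between libraries for 1 gene at a time and not between genes. In bulk libraries of this kind, fewer cells of a type and less RNA per cell cannot be told apart.

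Several libraries stood apart or went against their labels. Estimated depth ran from 2094354 to 14173568 reads, and 3 reads equal 0.439 normalized counts in the deepest library and 2.94 in the shallowest, that of injured CD140a(+)/Sca1(-) cells. That library listed 69.1% of all genes at 0, where the other 5 listed 28.2% to 39.0%, and it had 0 for 928 of the 5274 genes that reached 20 normalized counts in each of those 5. Pdgfra, the gene behind the CD140a label, stood at 211 normalized counts in the control library labelled CD140a(-)/Sca1(+), above the 33.6 of control CD140a(+)/Sca1(-) and the 26.3 of control CD140a(+)/Sca1(+). After injury the values in the same order were 335, 203 and 1240, so that the CD140a(-)/Sca1(+) library was again above 1 of the libraries labelled CD140a(+). Ly6a, itself inducible by interferon, followed the Sca1 label in both states, at 5850, 70.4 and 253 normalized counts in the controls and at 1177, 2.09 and 4099 after injury. Of the genes for the gated proteins, Ptprc (CD45) had 20.5 normalized counts in control CD140a(-)/Sca1(+) and 2.50 or fewer in the other 5. Pecam1 (CD31) was at 19.8 to 105 normalized counts in the 3 control libraries and at 1.51 or below after injury, and Itgam (CD11b) was at 8.48 to 27.5 in all 6.

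Promoter windows around a match to the ISRE are shown for 6 members, taken by their difference between the Sca1(+) sorts within the limits given below. They come from RefSeq (GRCm38.p6), which gave a window of 300 bases, 250 before to 50 after the start site, for 34 of the 45 members. Each line holds 60 bases read 5′ to 3′ on the gene's strand, and capitals mark each ISRE match. The letters searched were GAAANNGAAA on either strand, which reads TTTCNNTTTC from the other side. Members were taken in order of the difference between the sorts, those with at least 20 normalized counts in 3 or more libraries only. The printed bases had to lie before the start site, and a window with any annotated exon was passed over. Members with larger differences than some of those printed, among them Ifit3 and Gbp3, are therefore not shown.
Ifit3b, chr19:34607778-34607837, plus strand, match starting 154 bases before the start site: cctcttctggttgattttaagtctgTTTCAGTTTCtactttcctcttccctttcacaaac
Cxcl10, chr5:92349068-92349127, minus strand, match starting 213 bases before the start site: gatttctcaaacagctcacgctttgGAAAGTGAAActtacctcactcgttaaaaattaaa
Ifit1, chr19:34640779-34640838, plus strand, with 2 matches, the nearer starting 85 bases before the start site: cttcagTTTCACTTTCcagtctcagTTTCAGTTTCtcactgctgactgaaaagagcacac
Gbp7, chr3:142530258-142530317, plus strand, match starting 53 bases before the start site: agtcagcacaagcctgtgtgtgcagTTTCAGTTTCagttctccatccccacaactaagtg
Stat2, chr10:128270251-128270310, plus strand, match starting 222 bases before the start site: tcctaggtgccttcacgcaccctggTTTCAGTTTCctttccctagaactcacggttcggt
Rsad2, chr12:26456538-26456597, minus strand, match starting 120 bases before the start site: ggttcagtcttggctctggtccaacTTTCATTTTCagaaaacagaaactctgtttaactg

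An ISRE match lay in 19 of the 40 member windows (47.5%), 1 for each of 19 members, and in 1131 of 32851 windows of the same length over all genes (3.44%). The letters TTCNNNGAA of the GAS, which read the same on both strands, were found in 10 of 40 member windows (25.0%) and in 8.30% of all windows. Both motifs occurred in 6 members and either in 23. Ifit3b, Cxcl10, Ifit1, Gbp7, Stat2 and Rsad2, printed above, share this pattern with 13 further members, among them Ifit3, Oas1a, Isg15, Eif2ak2 and Bst2. A match describes letters and is not evidence of binding.

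In untreated muscle the members were high in a single sort. Their normalized counts had a median of 223 (range 4.70 to 5931) in CD140a(-)/Sca1(+) and of 9.71 (0 to 212) in CD140a(+)/Sca1(+). Of the 45 members, 40 exceeded 3 times the level of both other control libraries, whereas 9.59% of all genes tested did so. None of the 45 was listed at 0 in control CD140a(-)/Sca1(+), while control CD140a(+)/Sca1(-) had 13 such members and control CD140a(+)/Sca1(+) had 6. Of the 15532 genes tested, 543, 1980 and 1279 were at 0 in the same order of libraries. Their depth also differed, at 11984411, 3248537 and 2346691 estimated reads. Summed over members, the level was 0.820% of all normalized counts in the first of these libraries, 0.0323% in the second and 0.0580% in the third. Rsad2 alone made up a large part of the first value, which was 0.556% without it.

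After injury the Sca1(+) sorts changed places. The summed share of CD140a(-)/Sca1(+) was then 0.140%, that of CD140a(+)/Sca1(-) 0.121% and that of CD140a(+)/Sca1(+) 0.308%, or 0.297% without Rsad2. Of the 45 members, 38 were highest in CD140a(+)/Sca1(+), 4 (Usp18, Irgm1, Tgtp2 and Mx2) in CD140a(+)/Sca1(-) and 3 (Rsad2, Bst2 and Ifi27) in CD140a(-)/Sca1(+). This split was not counted over all genes. Injured CD140a(+)/Sca1(-) listed 8594 of the 15532 genes tested at 0, and a gene at 0 could not be highest there. Injured CD140a(+)/Sca1(+) exceeded injured CD140a(-)/Sca1(+) for 41 members, whereas 56.4% of all genes tested did so. Control CD140a(-)/Sca1(+) nevertheless stayed the highest of all 6 libraries for 37 members, as the heat map of normalized counts shows. It was so for 2763 of the 15532 genes tested. The highest library was injured CD140a(+)/Sca1(+) for Stat2, Oas3, Dhx58, Eif2ak2, Gbp3, Xaf1 and Ifi44, and injured CD140a(-)/Sca1(+) for Ifi27.

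**Figure D1:**
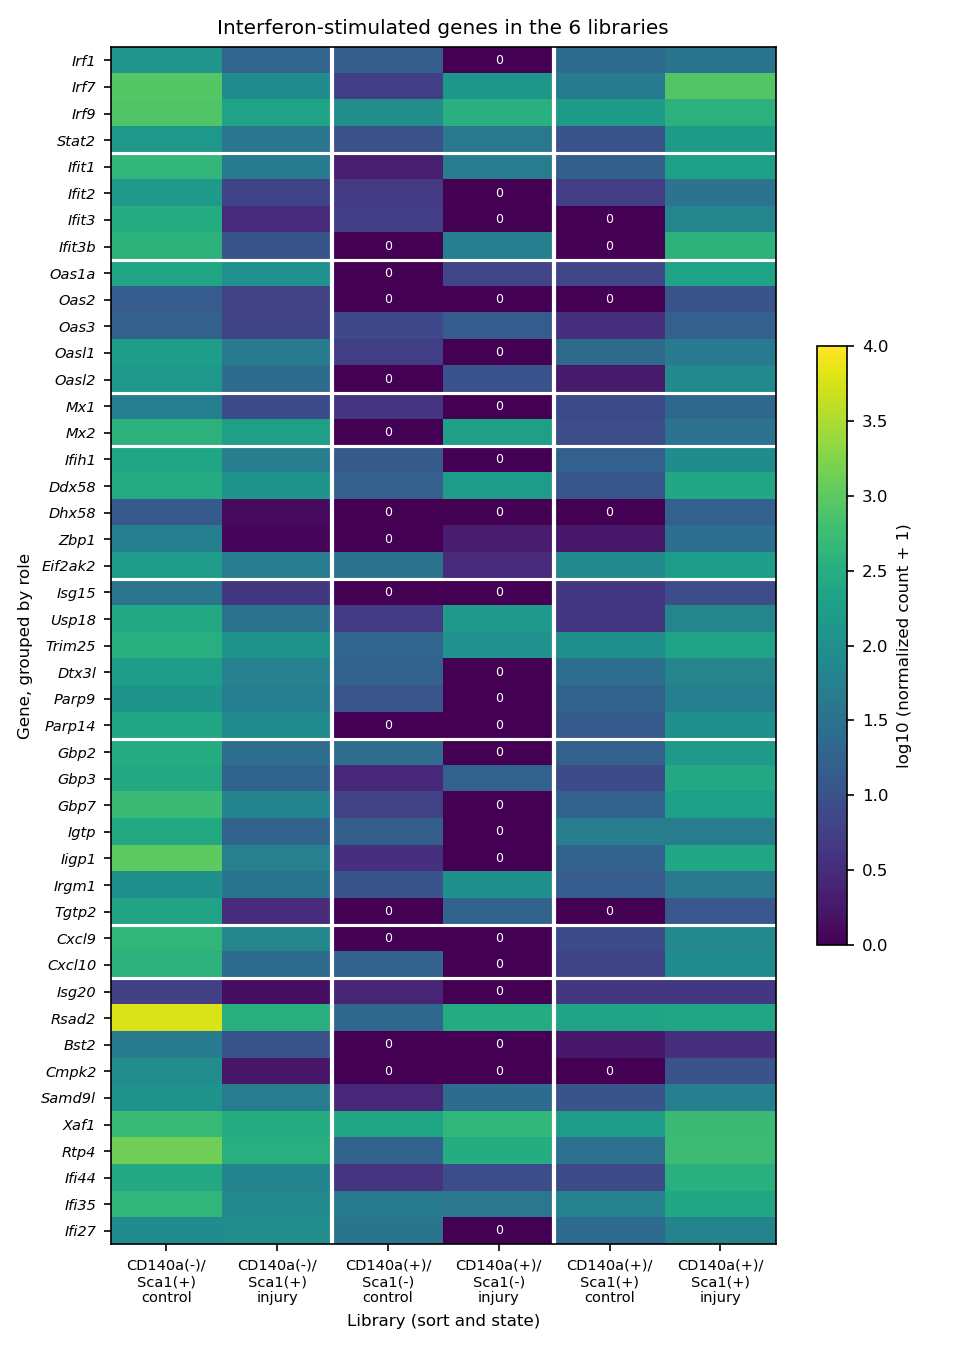
Heat map of the 45 interferon-stimulated genes (rows, grouped by role, white lines between roles) in the 6 libraries (columns), colored by log10 of the normalized count plus 1, with 0 written where a gene is listed at 0. The first column, control CD140a(-)/Sca1(+), has no gene at 0 and holds the highest value of 37 genes, while injured CD140a(+)/Sca1(-), the fourth, has 22 genes at 0.

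**Figure D2:**
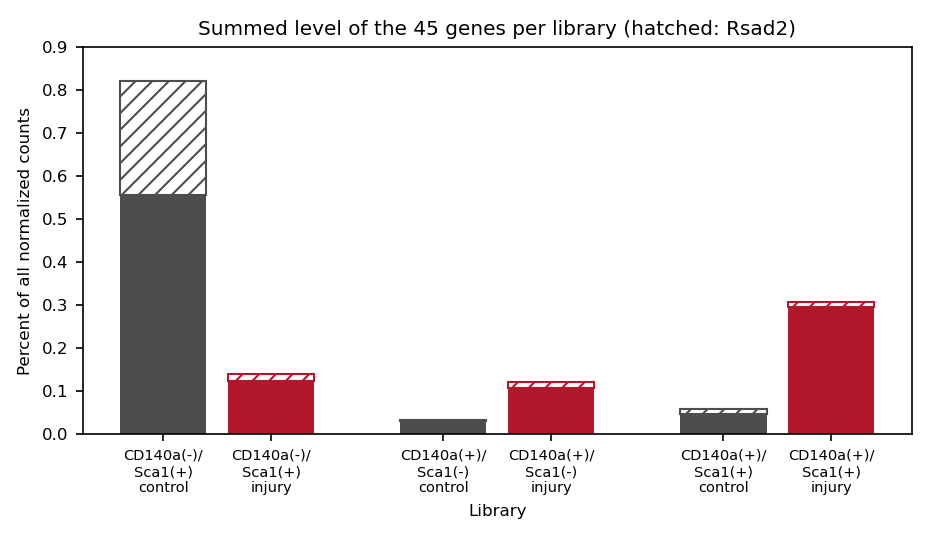
Summed level of the 45 genes as percent of all normalized counts (y axis) in the control (gray) and injured (red) library of each sort (x axis), 1 library per bar and no error bars, with the hatched part contributed by Rsad2. The bar falls from 0.820% to 0.140% in CD140a(-)/Sca1(+) and goes from 0.0580% to 0.308% in CD140a(+)/Sca1(+).

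The question of the injury comparison is how each sort differs between the injured and the resting state. Changes are given on the deposited log2 scale, which shrinks changes of low counts, and a 3-fold change means 3-fold on that scale. With 1 library against 1 library no test is possible, so counts of members are read beside the same counts over all genes tested. In CD140a(-)/Sca1(+), 29 members were at least 3-fold lower after injury (4.35% of all genes) and 0 were at least 3-fold higher (1.97%). Among the CD140a(+)/Sca1(+) values, 28 were at least 3-fold higher (10.4%) and 0 were at least 3-fold lower (6.07%). The median log2 change of the members was -1.93 in CD140a(-)/Sca1(+) and 1.85 in CD140a(+)/Sca1(+), where the medians of all genes tested were -0.23 and 0.11. CD140a(+)/Sca1(-) had 14 members at least 3-fold higher (8.31%), 9 at least 3-fold lower (29.4%) and a median change of 0.00 against -0.76 over all genes.

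Opposite change in the Sca1(+) sorts was the common pattern of the list. Because the list was chosen with earlier results of these data known, its counts beside all genes are a description and no independent test. Of the 45 members, 43 were lower in CD140a(-)/Sca1(+) and higher in CD140a(+)/Sca1(+) by any amount (31.2% of all genes), and 22 were so by at least 3-fold in each sort (0.625%). The opposite arrangement occurred in 0 members. The exceptions were Ifi27, at 84.1 in control and 91.2 normalized counts in injured CD140a(-)/Sca1(+), and Igtp, at 51.2 in control and 46.1 in injured CD140a(+)/Sca1(+). Among the 43, the change of Irf1, Isg15, Isg20, Rsad2 and Bst2 in CD140a(+)/Sca1(+) had an exact Poisson 95% interval that included no change. The change in CD140a(+)/Sca1(+) minus that in CD140a(-)/Sca1(+) had a median of 4.14 on the log2 scale, against 0.32 over all genes tested. A test of this difference has no residual degrees of freedom, since each sort has a single library in each state.

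**Figure D3:**
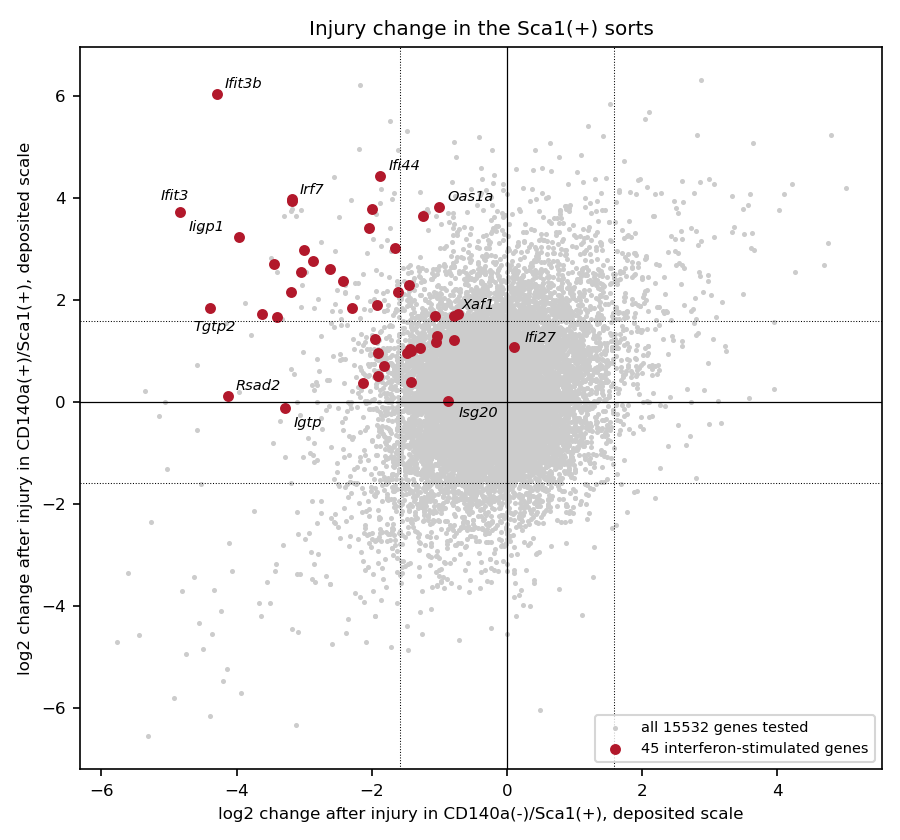
Log2 change after injury on the deposited scale in CD140a(-)/Sca1(+) (x axis) and in CD140a(+)/Sca1(+) (y axis) for all 15532 genes tested (gray) and the 45 interferon-stimulated genes (red), with dotted lines at 3-fold. The upper left quadrant holds 43 of the 45 genes and the corner beyond both dotted lines holds 22.

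**Figure D4:**
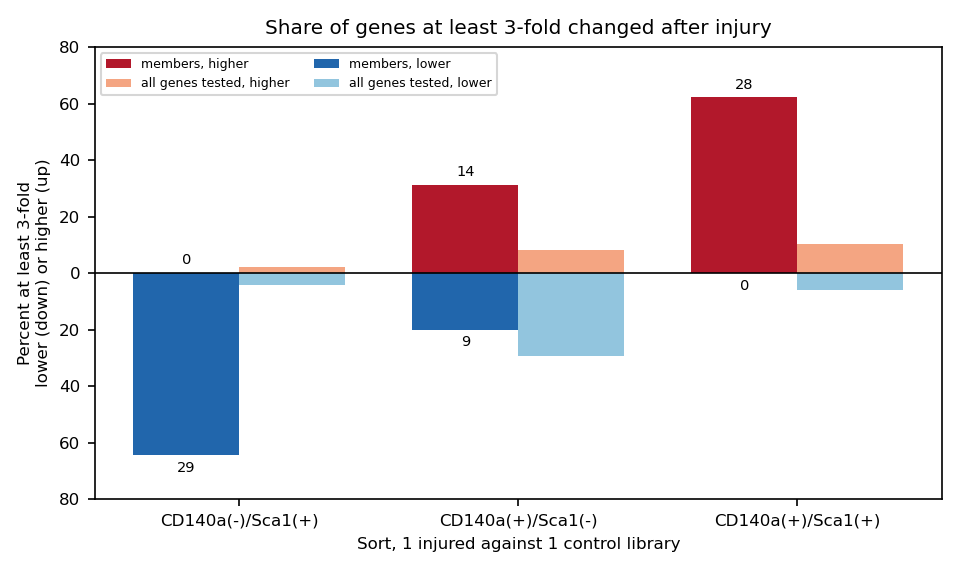
Percent of the 45 members (dark bars, with their number) and of all genes tested (pale bars) that were at least 3-fold higher (upward, red) or lower (downward, blue) after injury in each sort (x axis), 1 injured against 1 control library. The dark bars point down for 29 members in CD140a(-)/Sca1(+) and up for 28 in CD140a(+)/Sca1(+).

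For each member below, the values of the 3 control libraries come first and those of the 3 injured libraries follow, each time ordered as CD140a(-)/Sca1(+), then CD140a(+)/Sca1(-), then CD140a(+)/Sca1(+). Among the 4 transcription factors, Irf7, the amplifier of interferon production that is itself interferon-induced, stood at 879, 4.44 and 44.5 normalized counts in the controls and at 86.5, 129 and 848 after injury. The injured CD140a(+)/Sca1(+) library thus reached nearly the level of the control CD140a(-)/Sca1(+) library. From control to injury Irf7 was 10.2-fold lower in CD140a(-)/Sca1(+), with an exact Poisson 95% interval of 9.32 to 11.1, and 19.1-fold higher (14.5 to 26.0) in CD140a(+)/Sca1(+). These intervals cover counting error only, not the spread between animals. Irf9 and Stat2 encode parts of a complex that binds the ISRE. Irf9 was at 814, 93.1 and 149 normalized counts and then at 201, 344 and 366. Stat2 was at 137, 8.99 and 9.71 and then at 36.0, 38.3 and 148. Both were lower after injury in the first sort and higher in the other two. Irf1, an early target of interferon gamma, was at 120, 13.9 and 23.7 normalized counts and then at 19.2, 0 and 33.4, so that the gain in CD140a(+)/Sca1(+) was 1.41-fold with an interval of 0.879 to 2.29 that includes no change.

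The IFIT genes, whose products bind viral RNA and block its translation, had the largest median difference between the Sca1(+) sorts of any role, 7.27 on the log2 scale. All 4 lie side by side on chromosome 19 between 34550694 and 34650009 (GRCm38), and all 4 were at least 3-fold lower in CD140a(-)/Sca1(+) and at least 3-fold higher in CD140a(+)/Sca1(+). Ifit3b was at 382, 0 and 0 normalized counts in the controls and at 9.94, 50.1 and 378 after injury. Ifit3b was 38.4-fold lower in CD140a(-)/Sca1(+). In CD140a(+)/Sca1(+) the injured value was 143-fold above a control floor of 3 reads, and the interval of the change started at 116-fold. Ifit3 was at 291, 4.50 and 0 and then at 2.05, 0 and 66.8, which gave a 142-fold lower value (84.5 to 261) in CD140a(-)/Sca1(+). Ifit3 and Ifit3b are near-identical copies, and 3′ reads could be split between them, so their separate levels are uncertain. Ifit1 was at 442, 1.28 and 15.0 normalized counts and then at 45.6, 48.1 and 189. Ifit2 was at 144, 3.81 and 4.37 and then at 5.35, 0 and 32.0. Only the CD140a(-)/Sca1(+) control library held Ifit2 above 100.

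Guanylate-binding proteins and immunity-related GTPases attack the membranes of vacuoles that hold pathogens, and 6 of their 7 members were at least 3-fold lower in CD140a(-)/Sca1(+). At least 3-fold higher in CD140a(+)/Sca1(+) were 5 of the 7. Iigp1 was at 1012, 2.57 and 16.8 normalized counts in the controls and at 54.1, 0 and 244 after injury. This was an 18.7-fold lower value in CD140a(-)/Sca1(+) (16.8 to 20.8) and a 14.5-fold higher value in CD140a(+)/Sca1(+) (9.20 to 24.4). Gbp3 was at 255, 1.79 and 7.36 and then at 18.7, 16.4 and 260. Gbp7 was at 535, 5.01 and 17.2 and then at 63.5, 0 and 178. Gbp2 was at 295, 25.9 and 15.7 and then at 26.1, 0 and 141. These 3 Gbp genes are neighbors on chromosome 3 (142530342 to 142638008), and their paralogs can share reads. In each of them injured CD140a(+)/Sca1(-) was the lowest of the injured libraries. Tgtp2, a member with a near-identical copy, Tgtp1, was at 216, 0 and 0 normalized counts and then at 2.19, 17.7 and 11.1. Irgm1 was 2.89-fold lower (2.48 to 3.39) in CD140a(-)/Sca1(+) and 2.84-fold higher (1.60 to 5.11) in CD140a(+)/Sca1(+), short of 3-fold in both. Igtp was at 264, 15.5 and 51.2 and then at 17.8, 0 and 46.1, lower in all 3 sorts. Its injured value in CD140a(+)/Sca1(+) was 0.900 of the control value (0.639 to 1.28), an interval that includes no change.

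Cxcl9 and Cxcl10, chemokines that attract activated T cells through CXCR3, were both at least 3-fold lower and higher in the respective Sca1(+) sorts. Cxcl10 was at 367, 17.0 and 5.62 normalized counts in the controls and at 23.8, 0 and 87.2 after injury. Cxcl9 was at 434, 0 and 7.06 and then at 71.2, 0 and 75.8. After injury Cxcl9 thus lay at nearly the same level in the Sca1(+) sorts, while both chemokines were listed at 0 in CD140a(+)/Sca1(-).

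The sensors detect foreign or misplaced nucleic acid. Ddx58 (RIG-I), which binds RNA with a 5′ triphosphate, was at 287, 16.1 and 10.6 normalized counts in the controls and at 115, 157 and 246 after injury, 23.3-fold higher (13.2 to 45.3) in CD140a(+)/Sca1(+) and 2.49-fold lower in CD140a(-)/Sca1(+). Ifih1 (MDA5), the sensor of long double-stranded RNA, was at 223, 12.8 and 16.3 and then at 50.3, 0 and 88.0. Both were higher in injured CD140a(+)/Sca1(+) than in injured CD140a(-)/Sca1(+), by 2.14-fold and 1.75-fold. Zbp1, a sensor of Z-form nucleic acid, was at 52.4, 0 and 0.909 normalized counts and then at 0.150, 1.01 and 27.8. Its injured CD140a(-)/Sca1(+) value is 1 read, so the 348-fold lower level has an interval of 63.7 to 14181. Dhx58 (LGP2), the regulator of both RNA helicase sensors, was at 12.4, 0 and 0 and then at 0.292, 0 and 15.9. Eif2ak2 (PKR), the kinase that halts translation on double-stranded RNA, was at 158, 32.1 and 80.3 and then at 49.4, 1.96 and 167, a 2.08-fold higher value (1.65 to 2.66) in CD140a(+)/Sca1(+).

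Oligoadenylate synthetases activate RNase L, and the 5 members of the family were all lower in the former and all higher in the latter Sca1(+) sort, by at least 3-fold in 2 and 3 of them. Oas1a was at 220, 0 and 6.18 normalized counts in the controls and at 104, 5.89 and 211 after injury. It belongs to a cluster of near-identical genes, so its share of reads is uncertain. Oasl2 was at 133, 0 and 0.915 and then at 24.2, 9.15 and 81.8. Oasl1, at 176, 4.55 and 23.5 and then 42.0, 0 and 44.8, ended at almost equal levels in the injured Sca1(+) sorts. Oas2 and Oas3 stayed at 15.9 normalized counts or below in every library. The Mx GTPases, which trap viral nucleocapsids, differed from each other. Mx1 was at 51.5, 3.10 and 6.81 and then at 7.04, 0 and 21.3, whereas Mx2 was at 378, 0 and 7.94 and then at 179, 189 and 32.9. Mx2 was the only member with at least 100 normalized counts in both injured CD140a(-)/Sca1(+) and injured CD140a(+)/Sca1(-) and fewer than 100 in injured CD140a(+)/Sca1(+).

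ISG15 is a ubiquitin-like protein that is attached to targets during the response, and the 6 members of the ISG15 and ubiquitin group had smaller changes, with 2 at least 3-fold lower in CD140a(-)/Sca1(+) and 2 at least 3-fold higher in CD140a(+)/Sca1(+). Usp18, which removes ISG15 and also restrains the type I receptor, was in both counts, at 254, 3.85 and 3.53 normalized counts in the controls and at 32.5, 144 and 65.2 after injury. Parp14 was at 251, 0 and 12.4 and then at 84.3, 0 and 100.2. Its neighbors on chromosome 16, Parp9 and Dtx3l, encode partners in a complex. They ended at 51.7 and 57.9 normalized counts in injured CD140a(-)/Sca1(+) and at 52.4 and 65.8 in injured CD140a(+)/Sca1(+), and both were at 0 in injured CD140a(+)/Sca1(-). Isg15 itself was low, at 36.2, 0 and 3.53 and then at 3.51, 0 and 7.95, and Trim25, which activates RIG-I by ubiquitin, was at 331, 19.5 and 98.2 and then at 117, 106 and 207.

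Among the 10 other effectors, Rsad2 (viperin), an enzyme that makes an antiviral chain terminator, had the highest single value of the list. It was at 5931, 21.2 and 212 normalized counts in the controls and at 327, 290 and 230 after injury. Rsad2 was thus 18.1-fold lower (17.4 to 18.9) in CD140a(-)/Sca1(+), 13.7-fold higher (9.51 to 20.2) in CD140a(+)/Sca1(-), and 1.09-fold higher (0.925 to 1.28) in CD140a(+)/Sca1(+), an interval that includes no change. Its neighbor on chromosome 12, Cmpk2, a mitochondrial nucleotide kinase, was at 91.7, 0 and 0 and then at 0.731, 0 and 9.54. Rtp4 was at 1380, 17.9 and 30.7 normalized counts and then at 339, 298 and 559, which put it 16.7-fold and 18.2-fold higher in the CD140a(+) sorts. Ifi44 was at 260, 3.21 and 7.06 and then at 62.4, 7.85 and 350, 49.5-fold higher (25.0 to 115) in CD140a(+)/Sca1(+). Ifi35 was at 430, 41.6 and 59.0 and then at 78.9, 38.1 and 241. Xaf1, which promotes cell death, was detected well in every library, at 518, 220.5 and 156 and then at 295, 450 and 529. Samd9l was at 113, 1.93 and 9.71 normalized counts and then at 48.2, 24.5 and 52.5. Bst2 (tetherin), which holds budding virus at the membrane, and the exonuclease gene Isg20 were at 9.65 or below in every library but the control CD140a(-)/Sca1(+) library, where Bst2 reached 41.8. Ifi27, at 84.1, 33.6 and 23.7 and then at 91.2, 0 and 61.8, was the only member not lower in injured CD140a(-)/Sca1(+).

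In CD140a(+)/Sca1(-) cells the list was split. The 14 members at least 3-fold higher after injury were Irf7, Irf9, Ifit1, Ifit3b, Oasl2, Mx2, Ddx58, Usp18, Trim25, Irgm1, Tgtp2, Rsad2, Samd9l and Rtp4. Irf7 was 29.0-fold higher (13.5 to 72.5) and Usp18 37.4-fold higher (16.8 to 104). Mx2 was 98.3-fold above a control floor of 3 reads, and the interval of its change started at 79.2-fold. Of the 9 members at least 3-fold lower, Irf1, Ifih1, Dtx3l, Parp9, Gbp2, Igtp, Cxcl10 and Ifi27 were listed at 0 in the injured library and Eif2ak2 was at 1.96 normalized counts. In all, 22 members (48.9%) were listed at 0 there, against 55.3% of all genes tested. Of members with a median of at least 20 normalized counts in the other 5 libraries, 13 of 31 (41.9%) were at 0, against 25.9% of genes at that level. The part of this library's zeros in the lower values was not tested.

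When the 3 sorts served as replicates of the injury comparison, the opposite changes offset each other. In limma with sort as block, 0 members were called higher (2.30% of all genes) and 1 was called lower (3.46%), a call being an unadjusted p under 0.05 with at least a 3-fold change. The called gene was Igtp, with a log2 change of -1.85 (SE 0.71) and an adjusted p of 0.605 in limma across all genes (unadjusted 0.0397). It was lower in all 3 sorts, but in CD140a(+)/Sca1(+) its interval included no change, and in injured CD140a(+)/Sca1(-) it was listed at 0. Of all genes tested, none had an adjusted p under 0.05 (lowest 0.192), and 1 member was among the 1241 genes with an unadjusted p under 0.05 in limma. Without the CD140a(-)/Sca1(+) pair 12 members were called higher (2.58% of all genes) and 0 lower (3.23%), and without the CD140a(+)/Sca1(+) pair 10 were called lower (3.62%).

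The comparison of each sort with the mean of the other 2 averages over both states. A difference that turned with the state went into its residual, so a call does not mean the same order in both states. In limma 10 members were called higher in CD140a(-)/Sca1(+) (1.33% of all genes) and 0 lower (0.283%). They were Oas1a, Oasl1, Mx2, Ifih1, Dtx3l, Parp9, Parp14, Gbp7, Cxcl9 and Bst2, with log2 differences from 2.06 for Parp9 to 3.67 for Cxcl9. After injury only Mx2 and Bst2 of these were higher in CD140a(-)/Sca1(+) than in CD140a(+)/Sca1(+). In CD140a(+)/Sca1(-), 14 members were called lower (3.73% of all genes) and 0 higher (0.657%). Among these, Iigp1 had a log2 difference of -4.17, Parp14 of -3.91 and Cxcl9 of -3.85. All 14 but Oas1a and Eif2ak2 were listed at 0 in injured CD140a(+)/Sca1(-). So were all 10 called higher in CD140a(-)/Sca1(+) but Oas1a and Mx2. That library listed 69.1% of all genes at 0, and the part of its zeros in these calls was not tested. In CD140a(+)/Sca1(+) 0 members were called higher (1.32% of all genes) and 0 lower (0.47%). In these comparisons of sorts, all adjusted p-values of the members in limma were 0.615 or above. The counts of members higher in CD140a(-)/Sca1(+) and lower in CD140a(+)/Sca1(-) fell without the control CD140a(-)/Sca1(+) library and rose without the injured one. Each of these fits keeps a single library of that sort, and the counts are given at the end beside their shares of all genes. Both counts thus depended on which CD140a(-)/Sca1(+) library entered the fit.

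Outside the 45, the genes that start and carry the interferon signal had smaller median changes than the members. For receptors and JAK-STAT genes these were -0.18 and -0.01 on the log2 scale in CD140a(-)/Sca1(+) and CD140a(+)/Sca1(+). For inducing sensors and adaptors they were -0.50 and 0.35. Within the 45, the 4 signal transcription factors had medians of -2.05 and 2.12, and the 5 nucleic acid sensors had -1.62 and 2.15. Of 20 interferon genes found, none passed the filter, and the only values above 0 were 1.12 normalized counts of Ifnb1 in control CD140a(-)/Sca1(+) and 0.530 each of Ifnk and Ifng in injured CD140a(+)/Sca1(+). The first is above the floor of 3 reads in its library, 0.562 normalized counts, and the others are below theirs. Ifna1, the other ligand named by rule, was listed at 0 in all 6 libraries. Of 9 receptor and JAK-STAT genes tested and reported, 1 was called higher after injury (2.30% of all genes) and 0 lower (3.46%). Ifngr2, a chain of the interferon gamma receptor, was at 170, 28.3 and 35.3 normalized counts in the controls and at 229, 422 and 172 after injury (log2 change 1.95, SE 0.69 in limma). Of 14 inducing sensors and adaptors tested 0 were called. Tlr3, the endosomal receptor for double-stranded RNA, was at 643, 12.2 and 19.9 and then at 47.1, 0 and 203, whereas Tmem173 (STING) was at 222, 41.1 and 51.2 and then at 262, 261 and 238. Cgas ranged from 63.8 to 221 normalized counts and Irf3 from 49.2 to 202, each highest in injured CD140a(+)/Sca1(-). Of 8 negative regulators 1 was called higher (2.30% of all genes), Socs3, the feedback inhibitor of JAK signaling (log2 change 1.60, SE 0.60 in limma).

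A further list of 60 interferon-induced genes outside the 45 was measured in the same way. In CD140a(-)/Sca1(+), 30 of them were at least 3-fold lower (4.35% of all genes) and 0 higher (1.97%). For CD140a(+)/Sca1(+) the counts were 40 higher (10.4%) and 1 lower (6.07%). At least 3-fold opposite in both were 24 (0.625%). The medians were -1.61 and 2.00 on the log2 scale. In limma 0 were called higher after injury (2.30% of all genes) and 1 lower (3.46%), Aim2, a DNA sensor of the inflammasome (log2 change -1.78, SE 0.50). Because the list was assembled with earlier results of these data known, it adds a description and no independent test.

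**Figure D5:**
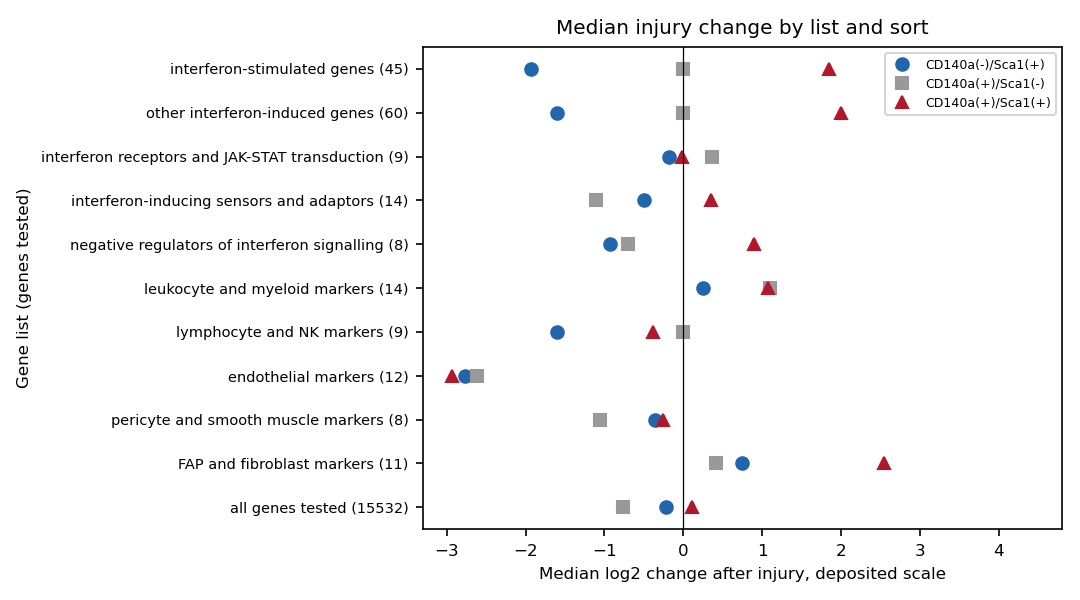
Median log2 change after injury on the deposited scale (x axis) for each gene list (y axis, number of genes tested in parentheses) in CD140a(-)/Sca1(+) (blue circles), CD140a(+)/Sca1(-) (gray squares) and CD140a(+)/Sca1(+) (red triangles), 1 library pair per point and no error bars. The members stand at -1.93 and 1.85 in the Sca1(+) sorts, and the endothelial markers lie below -2 in all 3 sorts.

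Markers of cells that the gate should have removed moved with parts of this pattern. The 14 lymphocyte and NK markers summed to 270 normalized counts in control CD140a(-)/Sca1(+), where the members were highest, and to 15.4 to 48.2 in the other 5 libraries. In that library the B cell genes Cd79a and Ms4a1 were at 90.7 and 48.4 normalized counts and the T cell genes Trbc2 and Cd3d at 41.4 and 34.1, while 1 of the 14 markers was at 0. After injury the same sort had 7 of the 14 at 0 and a sum of 35.4. The 16 leukocyte and myeloid markers summed to 424, 196 and 118 normalized counts in the controls and to 476, 970 and 311 after injury. Of 14 tested, 1 was called higher (2.30% of all genes), Lyz2 (log2 change 2.20, SE 0.56 in limma). Injured CD140a(+)/Sca1(+), where the members were high, thus had the lowest leukocyte sum of the injured libraries. Its sum was nevertheless above that of its own control, and the median log2 change of these markers was 1.07 (0.11 over all genes). Of the 14 tested, 10 were higher in this sort after injury and 3 lower, Ptprc among the lower at 0.533 normalized counts. At least 3-fold higher were 4 (10.4% of all genes), and 0 were at least 3-fold lower (6.07%). The 12 endothelial markers summed to 2780, 712 and 3672 in the controls and to 626, 12.4 and 1151 after injury. Of the 12, 8 were called lower (3.46% of all genes), among them Cdh5, Emcn, Esam and Egfl7. The endothelial sum was lower after injury in both Sca1(+) sorts, in which the members moved in opposite directions. The part of the lymphocyte and leukocyte markers in the members' levels was not tested.

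Markers of the sorted cells themselves also moved with the members in CD140a(+)/Sca1(+). Of the 11 FAP and fibroblast markers, 10 were at least 3-fold higher after injury in that sort (10.4% of all genes) and 0 at least 3-fold lower (6.07%). Their median log2 change was 2.54. The same list had a median of 0.75 in CD140a(-)/Sca1(+), with 3 markers at least 3-fold higher (1.97%) and 1 lower (4.35%). In CD140a(+)/Sca1(-) its median was 0.41, with 5 higher (8.31%) and 2 lower (29.4%). Dpt, which encodes the matrix protein dermatopontin, was at 15.0 normalized counts in control and 515 in injured CD140a(+)/Sca1(+). Summed over the list, the level in CD140a(-)/Sca1(+) was 9316 normalized counts before and 45426 after injury, that of CD140a(+)/Sca1(-) went from 8238 to 44238 and that of CD140a(+)/Sca1(+) from 3567 to 33674. Control CD140a(+)/Sca1(+), against which the rise of the members in that sort is measured, thus had the lowest sum of these markers, and it was also the least enriched population in the study's own flow cytometry check of the sorts. In limma 5 of the 11 were called higher after injury (2.30% of all genes), among them Col1a2 (log2 change 3.71, SE 0.49), Col1a1, Pdgfra and Dpt. The 8 pericyte and smooth muscle markers had median changes of -0.36, -1.06 and -0.26 in the same order of sorts. Of these 8, 1 was called higher (Cspg4, beside 2.30% of all genes) and 2 lower (Rgs5 and Myh11, beside 3.46%). The part of the makeup of the sorts in the members' levels was not tested.

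The ISRE and the size of the contrast were set side by side for the 34 members with a promoter window. The difference of log2 changes between the Sca1(+) sorts had a median of 4.82 (range 1.82 to 10.33) in the 19 members with an ISRE match and of 3.19 (0.89 to 7.13) in the 15 without. The ranges overlapped over most of their length. Irf7, with 7.13, was the highest of those without a match, and Bst2, with 1.82, the lowest of those with one. Members were spread over 15 chromosomes, with 8 on chromosome 11, 7 on chromosome 5 and 6 on chromosome 16, and overlapping or neighboring copies are not independent observations of the pattern.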

How the data were processed

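RNA of 6 sorted stromal libraries (3 sorts, control and injury, 1 library each) was measured by 3′ sequencing. The authors used FastX-Toolkit for trimming and STAR for alignment to GRCm38 (mm10), and normalized the counts with DESeq2 (STAR, DESeq2 and the build are also in the submitters' processing notes). The deposited values are log2 values made by the authors with a variance stabilizing transformation, whose floor is 2.57. The transformation was inverted here to normalized counts. Of the low values, 54.6% to 61.8% per library lay within 0.02 reads of a whole number, so whole reads were not recovered and no count model was run. Depth was estimated from the step of 1 read. Of 22483 identifiers 22453 were matched to symbols, and 0 columns belonged to other samples.

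The filter asked for an 80th percentile of at least 8 on the linear form of the deposited value. limma 3.58.1 in R 4.3.3 (no trend, prior degrees of freedom 4.11, residual 2) tested injury with sort as block, as the study's paired class comparison does, and each sort against the other 2 with state as block. P values were two-sided and adjusted by Benjamini-Hochberg over all 15532 genes. The labels do not state separate animals, so p-values measure the spread between these libraries. The fit was tested on simulated data. Poisson intervals are exact at 95%. Python 3.11.15, numpy 2.4.6, pandas 2.3.3, scipy 1.17.1 and matplotlib 3.10.9 were used.

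The members and lists were chosen with earlier results of these data known. All members are named. Of each further list up to 4 called genes with the largest change are named, or, in a list with no call, the 4 or fewer with the highest mean. The sort genes are also named. The result of 1 gene of the further lists is not reported here. Alternatives changed the log scale, filter, scaling, variance model and block and left out each pair. Leaving out single libraries, and Rsad2 from the sum, were added after the data were seen.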

Additional observations from a re-analysis of the deposited data

Results flagged for a closer look

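Injury changes at least 3-fold lower in CD140a(-)/Sca1(+) and at least 3-fold higher in CD140a(+)/Sca1(+) were found in 22 members. The difference between the sorts was not tested, because each sort has 1 library in each state. As the change in CD140a(+)/Sca1(+) minus that in CD140a(-)/Sca1(+), on the deposited log2 scale, it was 10.33 for Ifit3b, 8.56 for Ifit3, 7.19 for Iigp1, 7.17 for Gbp3 and 7.13 for Irf7. It was 6.30 for Ifi44, 6.24 for Tgtp2, 6.15 for Cxcl10, 5.97 for Ifit1, 5.76 for Rtp4, 5.64 for Gbp7, 5.59 for Gbp2 and 5.46 for Oasl2. Zbp1 and Cmpk2 had 5.34 each, Usp18 5.21, Ifit2 5.05 and Cxcl9 4.81. The lowest values were 4.67 for Stat2, 4.14 for Ifi35, 3.82 for Ifih1 and 3.77 for Dhx58. Of these genes, Ifit3, Ifit3b, Dhx58, Tgtp2 and Cmpk2 were listed at 0 in control CD140a(+)/Sca1(+), so their values depend on the floor of the scale.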

How the results depend on the processing

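The direction of the injury change in the Sca1(+) sorts was kept by the counts of members under every scaling, filter and log scale tried. Members at least 3-fold lower in CD140a(-)/Sca1(+) numbered 27 to 34 (3.00% to 19.3% of all genes), at least 3-fold higher in CD140a(+)/Sca1(+) 21 to 30 (8.0% to 21.9%), opposite by any amount 41 to 43 (23.3% to 34.1%) and opposite by 3-fold 17 to 22 (0.457% to 3.77%). A filter on normalized counts kept 43 of the 45. Quantile normalization moved the median difference between the Sca1(+) sorts over all genes from 0.32 to -0.01, and that of the members to 3.81. On log2 of the normalized count plus 1, the median change in CD140a(+)/Sca1(+) was 2.92 and members at least 3-fold lower in CD140a(+)/Sca1(-) numbered 15 (44.6% of all genes). With 0.5 in place of 1 these were 2.97 and 16 (49.8%), and the median difference between the Sca1(+) sorts was 5.66. The count lower in CD140a(+)/Sca1(-) was 4 with quantile normalization (19.0%), and the count higher there was 7 with 75th percentile scaling (2.76%), which also gave 25 members lower in CD140a(+)/Sca1(-) against the other 2 (8.94%). That last count was 22 with a mean-variance trend (4.69%) and 0 in the unmoderated test (0.599%), which also called 0 members higher in CD140a(-)/Sca1(+) (0.277%). Without the replicate block 0 members were called after injury, higher (2.17%) or lower (3.12%).

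Leaving out each pair in turn gave 0 to 12 members called higher after injury (12 without CD140a(-)/Sca1(+), 2.58% of all genes) and 0 to 10 called lower (10 without CD140a(+)/Sca1(+), 3.62%, and 2 without CD140a(+)/Sca1(-), 2.65%). Leaving out single libraries, added after seeing the data, gave 0 to 29 members higher in CD140a(-)/Sca1(+) (0.335% and 1.24% of all genes in those fits) and 4 to 30 lower in CD140a(+)/Sca1(-) (2.11% and 1.32%). In both, the lowest count came without control CD140a(-)/Sca1(+) and the highest without injured CD140a(-)/Sca1(+). The first count was 3 without control CD140a(+)/Sca1(+) (0.573%), 21 without injured CD140a(+)/Sca1(-) (1.70%) and 22 without injured CD140a(+)/Sca1(+) (2.74%), and the second was 25 without control CD140a(+)/Sca1(+) (7.61%). Without control CD140a(+)/Sca1(-) the shares of all genes rose as well: 17 members were called higher in CD140a(-)/Sca1(+) beside 9.99% of all genes, against 1.33% with all libraries, and 17 lower in CD140a(+)/Sca1(-) beside 27.9%, against 3.73%. Members called in CD140a(+)/Sca1(+) numbered 0 to 7 higher (7 without its control library, 3.22%) and 0 to 3 lower (0.129% to 2.27%). Igtp missed the call in 5 of 13 alternatives, at p up to 0.257. Depth limited the low members: in injured CD140a(+)/Sca1(-), 3 reads equal 2.94 normalized counts. The causes of these shifts were not tested.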
